A study of Mus musculus with 14 samples.

Results

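The genes described here are 10 genes that are widely used to mark tissue-resident macrophages, chosen by symbol from the 32285 genes counted. They are C1qa, C1qb, C1qc, Apoe, Trem2, Cd5l, Vsig4, Marco, Clec4f and Timd4, and each was found once in the gene list. They were counted as unique molecular identifiers (UMIs, each standing for 1 captured RNA molecule) in single-cell RNA libraries of white nodules from 7 cKO mice, 1 nodule per mouse. The study describes all 7 as cKO, that is, Eif3e fl/fl Cγ1Cre. Cre then follows the Ig γ1 constant region locus and deletes Eif3e in activated B cells, and it is not directed at macrophages. The study reports that B and CD4+ T cells of the tumors lacked YFP and had normal eIF3e protein. B-like cells are therefore not taken as Eif3e-deficient here. The nodules came from the liver for mouse 27 (12 mo old) and mouse 30 (14 mo), the lung for mouse 29 (12 mo), the spleen for mouse 31 (13 mo) and mouse 32 (12 mo), the thymus for mouse 33 (16 mo), and the lung and thymus for mouse 34 (9 mo). A B cell receptor (BCR) library was made from the same nodule in mice 27, 29, 31, 33 and 34, and a T cell receptor (TCR) library in mice 30 and 32. Mice 29, 31, 32 and 34 also carried the Rosa26-YFP reporter allele, and mice 27, 30 and 33 did not. The nodule of mouse 27 was, by the study's description, a secondary tumor grown in a Rag2-/- recipient. Its macrophages may be those of the host and not of the cKO genotype. The age and liver site given for it may be those of the donor. Mouse 34 was a bone marrow chimera made with mixed marrow, so its macrophages need not all be of the cKO genotype. No healthy organ was analysed here, and with 1 or 2 nodules per site, site, mouse and type of lymphoma cannot be told apart.

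Resident macrophages settle in each organ and take on a program shaped by it. Kupffer cells of the liver sinusoids carry Clec4f, Vsig4, Timd4 and Cd5l, red pulp macrophages of the spleen clear aged red cells, alveolar macrophages of the lung clear surfactant, and macrophages of the thymus take up dying thymocytes. C1qa, C1qb and C1qc encode the chains of C1q, which starts the classical complement pathway and tags dying cells, whereas Apoe and Trem2 act in the handling of lipids taken up with such cells.

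Of 77442 deposited cells, 75503 passed the filters, with 19264039 to 123456962 UMIs per library and medians of 1364 to 5319 UMIs per cell. Any pair of libraries shared 96 to 286 cell barcodes, at most 2.28% of the smaller one. Cells were clustered without the 10 genes. A single cluster of 3100 cells (4.11% of all cells) was named macrophage-like. All 10 fixed macrophage markers, among them Csf1r, Adgre1, Cd68 and Fcgr1, met the counting rule. The rule asks that a marker be counted in at least 10% of the cells and at least 1.5-fold above its median level over the clusters. It took 2.61%, 7.21%, 1.94%, 3.66%, 1.23%, 9.60% and 1.47% of cells in mice 27, 29, 30, 31, 32, 33 and 34 respectively, a mean of 3.96% ± 3.22 (SD, n = 7). Clustered again on their own, these cells gave groups that were named by the same rule, against the same medians. Macrophage-named groups held 119 of 245 cells of mouse 27, 722 of 1013 of mouse 29, 138 of 416 of mouse 31, 473 of 958 of mouse 33 and 45 of 101 of mouse 34, but 6 of 203 of mouse 30 and 5 of 164 of mouse 32. In these 2 TCR mice, 181 and 136 of the cells lay in monocyte-named groups. The name macrophage-like therefore covered mostly monocyte-like cells in mice 30 and 32, and values are given below for the whole cluster unless stated.

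Most C1q transcripts lay in the macrophage-like cells. The cluster held 97.5% of the C1qa, C1qb and C1qc UMIs of mouse 27, 95.6% for mice 29 and 31, 95.5% for mouse 32, 96.1% for mouse 33 and 90.9% for mouse 34, but 64.5% for mouse 30, where only 31 C1q UMIs were counted in 10483 cells. The mean was 90.8% ± 11.8 (SD, n = 7). Levels are given as UMIs scaled to 1e+06 summed UMIs of the cells named (CPM), with 95% exact Poisson intervals, which cover counting error only. Summed over the 3 chains, the level in macrophage-like cells was 6588 CPM (6450 to 6728) for mouse 27, 2192 (2154 to 2230) for mouse 29, 24.7 (15.1 to 38.1) for mouse 30, 6886 (6777 to 6997) for mouse 31, 353 (327 to 380) for mouse 32, 6797 (6725 to 6869) for mouse 33 and 9433 (9203 to 9667) for mouse 34. Mouse 30 was thus lowest, whereas the other liver nodule, of mouse 27, was at the median of the 7, and of the spleen nodules mouse 31 lay above and mouse 32 below that median. Within macrophage-named groups, which were large enough in the 5 BCR mice only, the levels ran from 3007 CPM in mouse 29 to 10473 in mouse 34. In the whole cluster the same 5 mice ran from 2192 to 9433 CPM, so their spread was much the same. A C1q UMI was found in 73.5% of macrophage-like cells of mouse 27, 66.6% for mouse 29, 3.94% for mouse 30, 85.8% for mouse 31, 22.6% for mouse 32, 90.6% for mouse 33 and 85.1% for mouse 34. With each cell thinned to 1000 UMIs these shares were 75.2%, 58.7%, 2.72%, 78.8%, 13.8%, 87.2% and 86.4% in the same order. In T-like cells, which do not make C1q, the unthinned shares ran from 0 of 20 cells in mouse 27 to 8.90% in mouse 33, and the thinned ones from 0% to 4.29%. T-like cells had median depths of 1003 to 2825 UMIs and macrophage-like cells of 2342 to 9671.

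The 3 chains moved together. C1qb had the most UMIs of the 3 in the macrophage-like cells of every nodule, with 2573 CPM for mouse 27, 980.4 for mouse 29, 12.3 for mouse 30, 2558 for mouse 31, 146 for mouse 32, 2601 for mouse 33 and 3814 for mouse 34. C1qa ran from 4.94 CPM in mouse 30 to 2546 in mouse 34, and C1qc from 7.41 to 3073 in the same mice. Over 38 sums of cells of 1 nodule and 1 class with at least 50 cells, C1qa and C1qc had a Pearson correlation of 0.992 on the log2(CPM + 1) scale, C1qb and C1qc of 0.984, and C1qa and C1qb of 0.979. These sums share libraries, so the values are descriptions. The gene outside the trio most like each chain was Ms4a7, a membrane protein of macrophages and one of the naming markers, at 0.943, 0.940 and 0.952 for C1qa, C1qb and C1qc. The trio lies on chromosome 4 within 18719 bases (chr4:136880126-136898844, GRCm38.p6), C1qb first, then C1qc, then C1qa, with no other RefSeq gene between. The 250 bases before the start of C1qb (chr4:136886201-136886450) and C1qc (chr4:136892915-136893164), both on the minus strand, are shown because these neighbours had near-identical patterns. No such window was available for C1qa. The C1qc window overlaps the end of the annotated gene (136892936), so the start used for it is not the outermost one. Capitals mark GAGGAA, the core bound by ETS factors such as PU.1, on either strand. The sequences are from RefSeq.
C1qb: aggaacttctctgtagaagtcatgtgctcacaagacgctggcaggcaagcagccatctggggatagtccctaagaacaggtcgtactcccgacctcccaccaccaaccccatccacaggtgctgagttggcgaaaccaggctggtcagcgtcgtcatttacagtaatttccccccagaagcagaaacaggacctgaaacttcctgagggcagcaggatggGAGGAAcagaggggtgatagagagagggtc
C1qc: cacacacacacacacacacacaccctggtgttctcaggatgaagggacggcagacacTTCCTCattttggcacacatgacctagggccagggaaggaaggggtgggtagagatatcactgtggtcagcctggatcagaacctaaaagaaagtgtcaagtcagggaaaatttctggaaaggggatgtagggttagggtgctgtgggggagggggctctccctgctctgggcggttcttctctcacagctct
GAGGAA was found on the strand shown of the C1qb window, beginning 30 bases before the start, and on the opposite strand of the C1qc window, where its 6 bases begin 193 bases before the start. Of 32851 such RefSeq windows, 23.3% held GAGGAA on either strand, so a match is a description of the letters and no more.

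**Figure D1:**
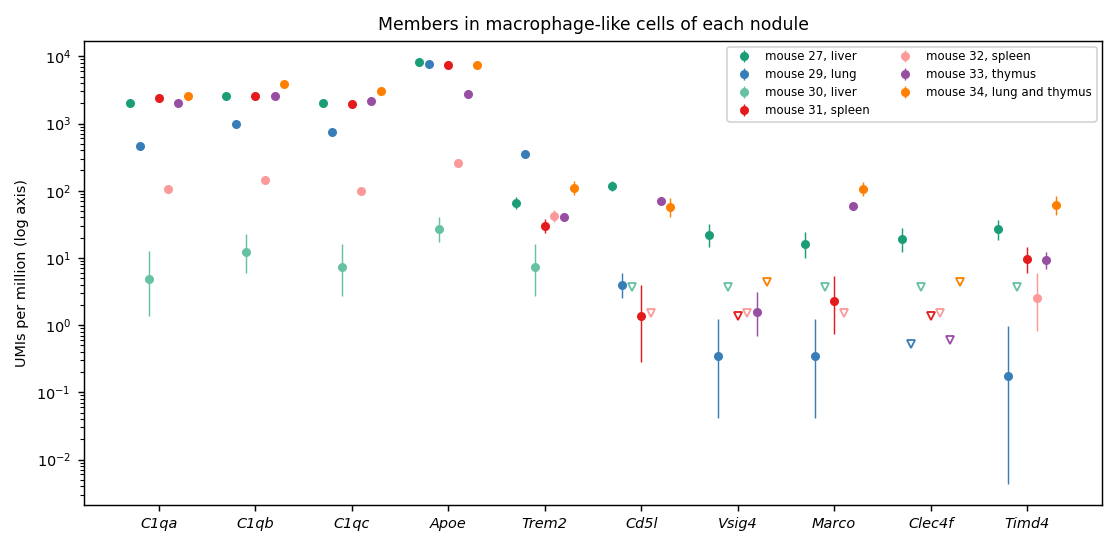
CPM (log axis) of each gene in the macrophage-like cells of the 7 nodules, with 95% Poisson intervals. Open triangles stand at 3 counts for libraries with no UMI. C1q and Apoe of mice 30 and 32 lie below those of the other 5 mice, Trem2 is highest in the lung nodule of mouse 29, and Clec4f was counted in mouse 27 only.

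Apoe, which encodes the lipoprotein that carries cholesterol out of cells, was the most abundant of the 10 genes. In macrophage-like cells it was counted at 8125 CPM (7972 to 8281) for mouse 27, 7643 (7572 to 7715) for mouse 29, 27.2 (17.0 to 41.1) for mouse 30, 7547 (7433 to 7663) for mouse 31, 263 (241 to 286) for mouse 32, 2753 (2708 to 2800) for mouse 33 and 7527 (7321 to 7736) for mouse 34. Mice 27, 29, 31 and 34 were within a narrow band, mouse 33 below it, and the TCR mice far below. Apoe and C1q were not in a fixed proportion. There were 3.49 Apoe UMIs per C1q UMI (95% interval from the exact binomial share, 3.42 to 3.56) in the macrophage-like cells of mouse 29, 1.23 (1.199 to 1.27) for mouse 27, 1.10 (1.07 to 1.12) for mouse 31, 0.798 (0.769 to 0.828) for mouse 34 and 0.405 (0.397 to 0.413) for mouse 33. Unlike C1q, Apoe was not limited to macrophage-like cells. The cluster held 79.1% of all 115071 Apoe UMIs, and in mouse 29 another 14963 UMIs, against 44236, were in 2969 fibroblast-like cells, at 71.9 Apoe UMIs per C1q UMI (62.7 to 82.9). In the liver nodule of mouse 30, 520 of 635 Apoe UMIs lay in 76 epithelial-like cells, which also held 289 UMIs of Ttr and 118 of Alb, transcripts of hepatocytes. In the liver nodule of mouse 27 the 29 epithelial-like cells held 515 Apoe UMIs beside 334 of Ttr, 227 of Apoa1 and 111 of Alb. The summed hepatocyte markers in the macrophage-like cells were at most 1.23 CPM in any nodule.

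Trem2, a lipid-sensing receptor of phagocytes, was counted at 357 CPM (2064 UMIs) in the macrophage-like cells of the lung nodule of mouse 29. It stood at 111 CPM for mouse 34, 66.02 for mouse 27, 42.3 for mouse 32, 41.2 for mouse 33, 29.9 for mouse 31 and 7.41 for mouse 30. Trem2 UMIs were seen in 54.8% of macrophage-like cells of mouse 29 and in 2.96% to 25.6% of those of the other mice. The level in the TCR mouse 32 lay among those of the BCR mice, although its Apoe and C1q did not. Outside the cluster Trem2 averaged at most 1.92 CPM in any class over the nodules. Its most similar genes over the 38 sums were Ms4a7, Gpnmb and Arg1, at 0.911, 0.908 and 0.904. Those of Apoe were Igf1, Cxcl16 and Selenop, at 0.907, 0.889 and 0.867.

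The remaining 5 genes, receptors and secreted proteins of resident macrophages, were sparse. Of 3100 macrophage-like cells, 154 held a UMI of any of them, 31 held at least 2 of the 5 and 9 held at least 3. Cd5l, a secreted protein that macrophages use to survive lipid stress, was counted with 155 UMIs in 29 of 245 macrophage-like cells of mouse 27 (118 CPM), 353 UMIs in 56 of 958 cells of mouse 33 (70.3 CPM) and 39 UMIs in 6 of 101 cells of mouse 34 (57.7 CPM). It reached 3.97 CPM in mouse 29 and 1.36 in mouse 31, and no UMI was seen in mice 30 and 32, which allows up to 3.70 and 1.53 CPM. Timd4 (Tim-4), the phosphatidylserine receptor for dying cells, stood at 60.6 CPM for mouse 34, 26.6 for mouse 27, 9.53 for mouse 31, 9.36 for mouse 33, 2.55 for mouse 32 and 0.173 for mouse 29, with none for mouse 30. Marco, a scavenger receptor for bacteria and particles, was concentrated in few cells. Its 295 UMIs in mouse 33 (58.7 CPM) came from 21 cells, up to 75 in a cell, and the 72 UMIs of mouse 34 (106 CPM) from 4 cells. Mouse 27 had 21 Marco UMIs in 4 cells. Over the 38 sums, among genes of at least 10 CPM, the gene most like each of the 5 was Lyz1, which encodes a lysozyme. The correlation was 0.867 for Marco, 0.859 for Timd4, 0.832 for Cd5l, 0.628 for Vsig4 and 0.505 for Clec4f. For the first 3 the next were Ccl12 and Pla2g2d.

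Most UMIs of Vsig4 and Clec4f came from the liver nodule of mouse 27. Vsig4 (CRIg), a receptor for complement fragments that Kupffer cells carry, gave 29 UMIs in 11 macrophage-like cells of mouse 27, 8 in 2 cells of mouse 33, 2 in 1 cell of mouse 29 and none in the other 4 nodules. Clec4f, the glycan-binding lectin that defines mouse Kupffer cells, gave 25 UMIs in 5 macrophage-like cells of the liver nodule of mouse 27 (2.04% of cells, exact 95% interval 0.666% to 4.7%) and 2 UMIs in T-like cells of mice 30 and 32. In the macrophage-like cells of the other 6 nodules there was no Clec4f UMI, which allows up to 3.70 CPM in the second liver nodule (mouse 30) and 0.518 to 4.44 CPM in the rest. The liver label of mouse 30 was thus not matched by a Kupffer cell marker among these 10 genes, since Vsig4, Timd4, Cd5l and Marco were also at 0 there. Only 6 of its 203 macrophage-like cells were in a macrophage-named group and 181 were in monocyte-named groups. These counts of 0 therefore say little about Kupffer cells in that nodule. In each nodule Clec4f or Vsig4 rests on at most 11 cells, and levels were described without a test.

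Macrophage-like cells parted by nodule, and the 10 genes followed these groups. Groups are called by their leading genes, which were used to make them. Clustering the cells together was done without aligning the libraries, so a group that is mostly of 1 library may be that library.

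**Figure D2:**
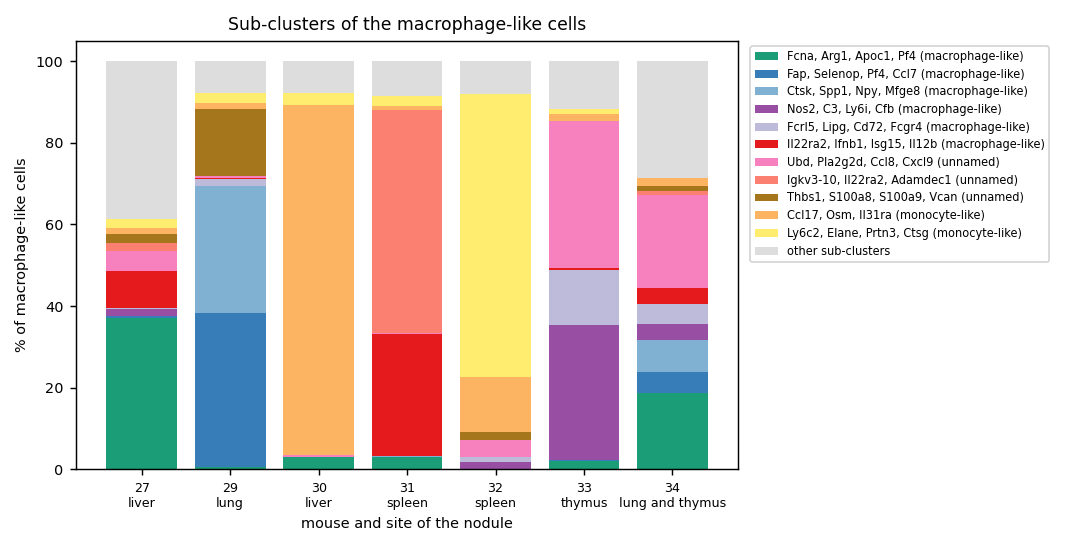
Share of macrophage-like cells (%) of each nodule in the groups found by clustering them again, named by leading genes and, in parentheses, by class. The larger groups of mice 29, 31 and 33 are mostly their own, monocyte-like groups make up most of mice 30 and 32, and mice 27 and 34 both hold the Fcna and Arg1 group.

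In the liver nodule of mouse 27, 91 of 245 macrophage-like cells were in a macrophage-named group led by Fcna, Arg1, Apoc1 and Pf4. This group also held 19 of 101 cells of mouse 34, 21 cells of mouse 33, 13 of mouse 31, 6 of mouse 30 and 5 of mouse 29. All 10 genes were counted in it, at 9282 CPM for Apoe, 3652 for C1qb, 233 for Cd5l, 181 for Marco, 116 for Trem2, 66.8 for Timd4, 18.5 for Vsig4 and 14.4 for Clec4f. In its 91 cells from mouse 27, Cd5l was 146 CPM, Timd4 47.4, Vsig4 31.6 and Clec4f 27.6. In its 21 cells from the thymus nodule of mouse 33, Cd5l was 749 CPM, Marco 869 and Timd4 98.9, and Clec4f was not counted. A further 39 macrophage-like cells of mouse 27 lay in a monocyte-named group led by Ace, Pglyrp1 and Eno3, with Apoe at 1906 CPM, C1qb at 54.4 CPM and no UMI of C1qa, C1qc or Cd5l. Of the fixed Kupffer cell list (C6, Cdh5, Clec1b, Fcna, Folr2, Id1, Id3, Il18bp, Nr1h3 and Slc40a1), the summed level in macrophage-like cells was 842 CPM for mouse 27, 546 for mouse 34, 390 for mouse 33, 324 for mouse 31, 254 for mouse 30, 158 for mouse 29 and 98.8 for mouse 32. The second liver nodule, of mouse 30, was therefore below 4 of the other 6 in this list, and 174 of its 203 cells were in a monocyte-named group led by Ccl17, Osm and Il31ra, with 30.04 CPM of Apoe and 12.9 of C1qb.

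In the lung nodule of mouse 29, 384 cells formed a group led by Fap, Selenop, Pf4 and Ccl7, and 315 a group led by Ctsk, Spp1, Npy and Mfge8. Apoe was 16803 CPM in the first and 6788 in the second, and C1qb 2061 and 908. Trem2 was high in both, at 428 and 526 CPM. Cd5l was counted at 6.41 and 5.56 CPM, and Timd4 and Clec4f were not seen in either. A group of 167 cells led by Thbs1 and S100a8, which stayed unnamed because monocyte markers led it, had 1135 CPM of Apoe and 32.5 of C1qb. The alveolar list was mixed in mouse 29. The lineage marker Siglecf (0.346 CPM) and Car4 (2.07 CPM) were marginal. Fabp4 (699.8 CPM) and Pparg (118 CPM) were higher there than in any other nodule, and Chil3 stood at 2872. Ear2 (20.7 CPM), Plet1 (24.5) and Itgax (45.1) were exceeded in other nodules. Whether the lung nodule held alveolar macrophages cannot be read from these genes. The lipid-associated list (Spp1, Gpnmb, Fabp5, Cd9, Lgals3, Lpl, Ctsd, Cd63 and Cd36) summed to 13418 CPM in mouse 29 and to 2054 to 5629 CPM in the other 6 nodules.

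In the spleen nodule of mouse 31, 227 of 416 cells were in an unnamed group of few UMIs (median of the group, 1235) led by Igkv3-10 and Il22ra2, and 124 in a macrophage-named group led by Il22ra2 and Ifnb1. Apoe was 12911 and 7737 CPM and C1qa 3873 and 2474 CPM in the 2 groups. C1qa exceeded C1qb in the first (3572 CPM) and not in the second (2799 CPM). Cd5l was 6.24 CPM in the first and not seen in the second, Timd4 35.3 and 3.21 CPM, and Marco was not seen in the first and 4.01 CPM in the second. Spic, the factor that specifies red pulp macrophages, stood at 17.7 CPM in mouse 31 and 3.06 in mouse 32, against 81.2 in the liver nodule of mouse 27. Other red pulp genes differed from it. Treml4 stood at 23.6 and 1.53 CPM and Hpgd at 29.5 and 12.7 in mice 31 and 32, against 21.2 and 30.4 in mouse 27. The red pulp list summed to 323 and 107 CPM in the 2 spleen nodules and to 126 to 780.9 CPM in the others. In mouse 32, 114 of 164 cells were in a monocyte-named group led by Ly6c2, Elane, Prtn3 and Ctsg, with 229 CPM of Apoe, 127 of C1qb and 45.6 of Trem2. Macrophage-like cells of mouse 32 held no UMI of Cd5l, Marco, Vsig4 or Clec4f. In that nodule 21 Marco UMIs were counted instead in 9 of 3988 erythroid-like cells, up to 11 in a cell.

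In the thymus nodule of mouse 33, a group of 317 cells was led by Nos2, C3 and Ly6i, a group of 127 by Fcrl5, Lipg and Fcgr4, and an unnamed group of 345 cells with few UMIs by Ubd, Pla2g2d and Ccl8. C1qb was 2681, 3822 and 3011 CPM in the 3 groups, but Apoe was 3961, 385 and 4739 CPM. The Fcrl5 group therefore had the most C1q and the least Apoe of the 3. Cd5l was 44.3, 9.87 and 128 CPM, and Marco 39.1, not seen and 29.6. In the lung and thymus nodule of mouse 34, which had 101 macrophage-like cells, 23 were in the Ubd group with 10367 CPM of Apoe, 6034 of C1qb and 82.9 of Timd4.

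**Figure D3:**
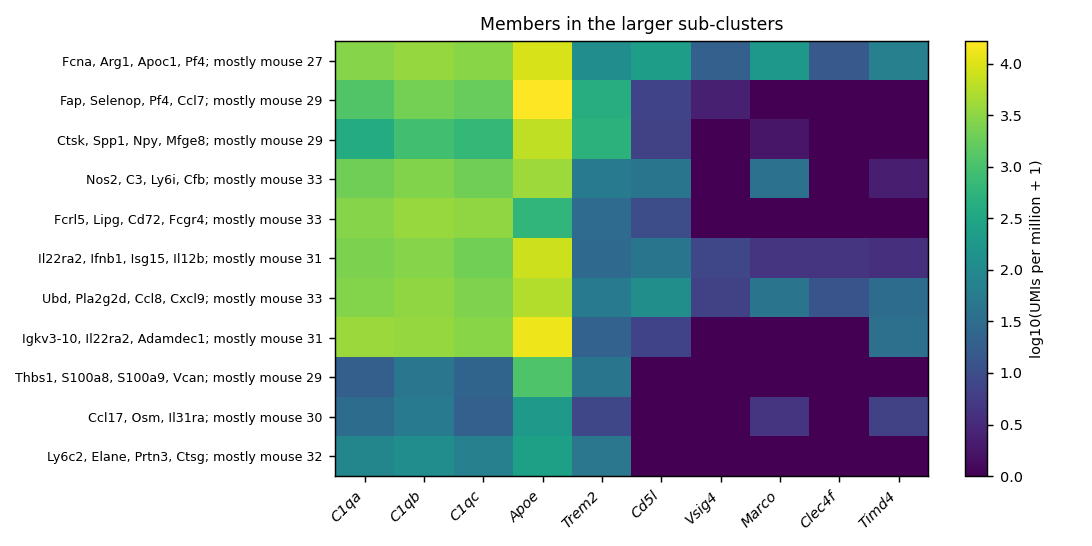
Levels of the 10 genes, as log10(CPM + 1), in the larger groups of macrophage-like cells, pooled over nodules, with the mouse that gave most cells. C1q is high in the upper 8 groups and low in the lowest 3, Apoe is low in the Fcrl5 group beside high C1q, and the 5 sparse genes are all present in the Fcna group.

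Liver and spleen were, by label, the only sites with 2 nodules. Summed macrophage-like cells of each were tested against the 5 other nodules with edgeR's quasi-likelihood test. The nodule of mouse 27 was counted as liver, although the study describes it as a transplanted tumor. No gene passed a Benjamini-Hochberg adjusted p of 0.05 for the liver (0 of 10537 tested, 0%) or for the spleen (0 of 10537, 0%), while 358 and 497 genes had an unadjusted p under 0.05, and DESeq2 called 3 and 18. Of the 10 genes, 8 were tested, and Vsig4 and Clec4f fell below the filter on low counts. Of these 8, 1 was higher and 7 were lower in the liver, with a median log2 difference of -0.78 against -0.04 over all genes tested. In the spleen 1 was higher and 7 were lower, with a median of -0.93 against -0.04. The standard errors of the 8 log2 differences were 1.22 to 2.29, and the adjusted p (edgeR) was at least 0.953 for each in both tests. The largest difference was that of Cd5l in the spleen, -5.91 ± 2.06 (SE) on the log2 scale, with an unadjusted p of 0.0190 and an adjusted p of 0.986 (edgeR). Trem2 differed by -1.85 ± 1.24 in the liver and by -1.80 ± 1.22 in the spleen. Without mouse 30, the log2 differences of C1qa, C1qb, C1qc and Apoe in the liver were 0.24, 0.19, 0.18 and 0.44, against -0.75, -0.80, -0.82 and -0.55 with it. Without mouse 27 they were -8.25, -7.35, -7.74 and -7.62. In the spleen the 4 differences were 1.03, 0.63, 0.57 and 0.76 without mouse 32 and -3.76, -3.82, -4.06 and -4.41 without mouse 31. Each pair of nodules of a site thus held 1 with high and 1 with low C1q and Apoe.

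None of the 10 fixed lists of macrophage programs and related pathways had a member past the threshold in either test. Of the Kupffer cell list, 9 of 10 genes were tested in the liver, 6 higher and 3 lower, with a median log2 difference of 1.67. Its most abundant genes were Il18bp, at 258 CPM in mouse 27 and 3.70 in mouse 30, and Id3, at 229.9 and 118.5, against 22.9 to 183 and 28.0 to 78.4 CPM in the other nodules. Id3 was higher in both liver nodules than in the other 5 and had an adjusted p of 0.953 (edgeR). Of the red pulp list, 7 of 9 were tested in the spleen, 2 higher (Hpgd and Treml4) and 5 lower, with a median of -1.28. Its most abundant gene was Vcam1, at 177 and 32.1 CPM in the spleen nodules and from 1.23 to 523 CPM in the others, followed by Hmox1, at 69.0 and 55.5 against 102 to 157 CPM. The alveolar list was led by Chil3, a chitinase-like protein that monocytes and neutrophils also make, at 194 to 5841 CPM over the nodules, and by Fabp4, at 1.36 to 699.8. The interstitial and perivascular list was led by the chemokine gene Ccl8, at 2193 CPM for mouse 34, 1734 for mouse 33 and none for mouse 30, and by F13a1, at 40.4 to 538 CPM. The marginal zone list held Nr1h3, which encodes LXRα, at 1.23 to 121 CPM, and Siglec1, at 0 to 10.4. In the lipid-associated list, Lgals3 ran from 518 CPM for mouse 31 to 2804 for mouse 29, and Fabp5 from 274 for mouse 32 to 2663 for mouse 29.

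Other parts of the complement and lipid pathways were measured beside C1q, Apoe and Trem2. In the complement list, 12 of 13 genes were tested, and 1 was higher and 11 were lower both in the liver (median -0.50) and in the spleen (median -1.09), none past the threshold. C3, the central complement component, ran from 16.0 CPM for mouse 30 to 987 for mouse 33, and Cfp, properdin, from 48.7 for mouse 29 to 473 for mouse 34. C1ra and C1s1, the proteases that join C1q in the C1 complex, were low, at 0 to 15.9 and 0 to 2.42 CPM. In the cholesterol export and lipoprotein list, all 9 genes were tested, with Abca1, the exporter that loads Apoe with lipid, at 24.7 CPM in mouse 30, 106 in mouse 32 and 215 to 486 in the others, and Pltp at 10.2 to 347. For the uptake of apoptotic cells, Cd36 ran from 12.5 CPM for mouse 33 to 886 for mouse 29, and Mertk from 7.41 for mouse 30 to 200.3 for mouse 33. Tyrobp, the adaptor through which Trem2 signals, stood at 417 to 2649 CPM and Syk at 116 to 365, and all 6 genes of this list were tested with none past the threshold.

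Apoe in B cells was examined last. In B-like cells Apoe was counted at 10.01 CPM (376 UMIs, 7741 cells) for mouse 27, 30.2 CPM (404, 1771 cells) for mouse 29, 13.8 CPM (910, 7333 cells) for mouse 31, 6.99 CPM (302, 4327 cells) for mouse 33 and 21.2 CPM (784, 4540 cells) for mouse 34. In the TCR mice, 0 of 78 and 0 of 43 B-like cells held an Apoe UMI, which allows up to 9.22 and 20.04 CPM. T-like cells, which are not known as a source of Apoe, held 103 CPM for mouse 29, 74.4 for mouse 31, 23.8 for mouse 33 and 21.6 for mouse 34, and 0 UMIs in 20 cells of mouse 27. The log2 ratio of B-like over T-like cells was -1.77, -2.43, -1.77 and -0.02 in mice 29, 31, 33 and 34, a mean of -1.50 ± 1.03 (SD, n = 4). In mouse 31 the T-like level was carried by few cells, since 59 of its 72 Apoe UMIs lay in the deepest of 4 equal bins of depth, where 4.51% of 133 cells held any, and the other 3 bins stood at 15.6 to 28.9 CPM. With each cell thinned to 1000 UMIs, the shares of B-like cells with an Apoe UMI were 3.30%, 1.33%, 0.804% and 1.92% in mice 29, 31, 33 and 34, against 8.81%, 2.35%, 2.53% and 1.69% of T-like cells. Whether B-like cells as a whole make Apoe cannot be read from these levels. B-like cells had medians of 3028 to 8806 UMIs in the BCR mice and T-like cells of 1003 to 1891. Within B-like cells the Apoe level was higher in the shallower cells. In mouse 31 it was 37.3 CPM in the shallowest of 4 equal bins of depth and 9.44 to 14.2 CPM in the other 3, and in mouse 27 it was 31.5 CPM in the shallowest and 7.16 in the deepest bin. The Apoe UMIs per C1q UMI in B-like cells were 2.51 (2.07 to 3.05) for mouse 27, 5.53 (4.30 to 7.20) for mouse 29, 1.63 (1.46 to 1.81) for mouse 31, 0.560 (0.485 to 0.646) for mouse 33 and 1.51 (1.35 to 1.69) for mouse 34. In each of these 5 nodules the ratio was above that of the macrophage-like cells, and the 5 nodules stood in the same order by both. T-like cells showed the same direction. In T-like cells the ratio was 5.50 (4.46 to 6.86) for mouse 29, 1.24 (0.866 to 1.79) for mouse 31, 0.459 (0.282 to 0.729) for mouse 33 and 1.30 (0.527 to 3.31) for mouse 34, each also above the value in macrophage-like cells, with intervals that overlap it except in mouse 29.

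**Figure D4:**
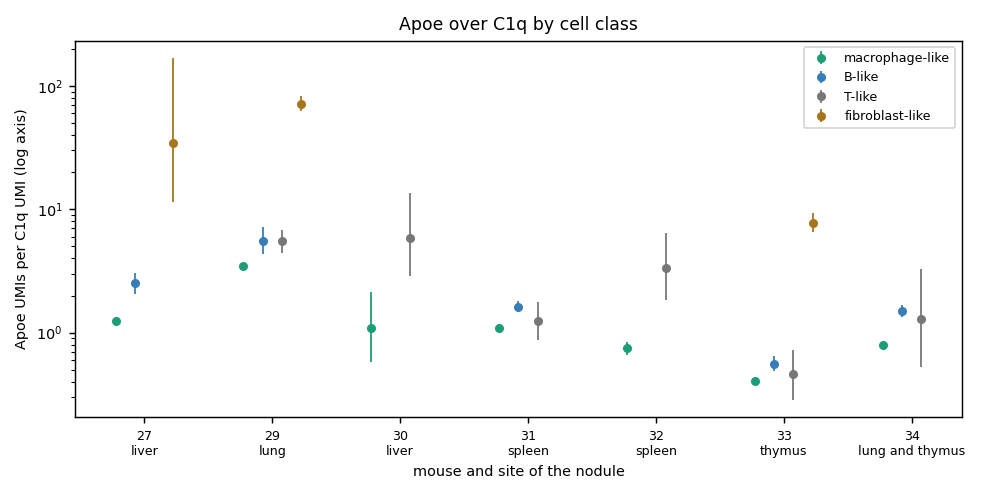
Apoe UMIs per C1q UMI (log axis) in 4 cell classes of each nodule, with 95% intervals from the exact binomial share. B-like cells lie above the macrophage-like cells of their own nodule and move with them from 0.560 in mouse 33 to 5.53 in mouse 29, and fibroblast-like cells lie far above both.

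B-like cells with a BCR call were then divided by whether they belonged to the expanded clone family, that is, to the called cells that shared a heavy or light chain with the most frequent clonotype. The family was defined from the V(D)J libraries and not from RNA levels. At least 20 called B-like cells outside the clone were found in 4 mice. Apoe stood at 19.4 CPM (69 UMIs in 298 cells) inside the clone and 135 CPM (25 UMIs in 32 cells) outside it in mouse 29. It stood at 12.1 (586 UMIs in 3961 cells) and 130 CPM (18 UMIs in 41 cells) in mouse 31. It stood at 4.65 (70 UMIs in 918 cells) and 44.5 CPM (10 UMIs in 23 cells) in mouse 33, and at 14.6 (249 UMIs in 1394 cells) and 120 CPM (30 UMIs in 23 cells) in mouse 34. All 4 values outside the clone were above all 4 inside it. With the mouse as a block, the log2 difference was 3.19 ± 0.29 (SE, higher outside in 4 of 4 mice), with an adjusted p of 0.00397 (edgeR). Apoe was 1 of 5 genes called of 9109 tested (0.0549%). The other 4, named after their values were seen, were Ighm (10.34), Igkv4-91 (12.39) and Tbc1d9 (5.51), higher outside the clone, and Dab1 (-4.40), lower. Reads of Igkv4-91 can be shared with its close relatives in the κ locus, and the immunoglobulin genes are set by which cells make up the clone. Without the block no gene was called and the adjusted p of Apoe was 0.316 (edgeR), at the same difference of 3.20. With all called cells of any class it was 0.107. With the clone taken as the most frequent clonotype alone, the difference was 0.58 and the adjusted p 0.999 (edgeR).

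The cells outside the clone were few and shallower, and the levels that move with this result are given beside it. Their median depth was 6166 UMIs for mouse 29, 2043 for mouse 31, 8630 for mouse 33 and 9675 for mouse 34, against 11201, 11209, 14773 and 11190 inside the clone. Apoe was lower than outside the clone in bins of B-like cells with medians around that depth. These bins hold all B-like cells, called or not, and depth as a cause was not tested. Apoe was 31.04 to 36.8 CPM in the 2 middle bins of mouse 29 and 37.3 CPM in the shallowest bin of mouse 31. In mouse 33 it was 5.84 to 7.40 CPM in the 2 middle bins, and in mouse 34 it was 16.5 to 17.1 CPM in the 2 deeper bins. Against T-like cells of the same nodule the level outside the clone had overlapping intervals in mouse 29 (87.3 to 199 against 94.8 to 112), mouse 31 (77.0 to 205 against 58.2 to 93.7) and mouse 33 (21.3 to 81.8 against 15.8 to 34.4), and lay above it in mouse 34 (80.8 to 171 against 11.5 to 36.9). Overlapping intervals do not show that the levels are equal, the 2 kinds of cell differed in depth, and the T-like level of mouse 31 was carried by few cells. An Apoe UMI was found in 13 of 32, 11 of 41, 2 of 23 and 9 of 23 of these cells. With each cell thinned to 1000 UMIs the shares were 13.8%, 25.0%, 4.35% and 17.4% outside the clone, 1.68%, 0.959%, 0.980% and 0.933% inside it, and 8.81%, 2.35%, 2.53% and 1.69% in T-like cells of the 4 mice. In mouse 31 the thinned share outside the clone (exact 95% interval 12.1% to 42.2%) lay above that in T-like cells (1.18% to 4.16%).

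C1q separated mouse 33 from the other 3. Outside the clone there were 25 Apoe UMIs beside 1 C1q UMI for mouse 29. There were 18 beside 0 for mouse 31 and 30 beside 1 for mouse 34. The macrophage-like cells of these nodules had 3.49, 1.10 and 0.798 Apoe UMIs per C1q UMI. The source of the Apoe UMIs outside the clone was not tested. In mouse 33 there were 10 Apoe UMIs beside 18 of C1q, and the Apoe UMIs came from 2 cells. With cells outside the clone that held C1q left out, chosen after seeing the data, 3 mice remained, and the log2 difference of Apoe was 2.92 with an adjusted p of 0.0372 (edgeR). With called cells that held any macrophage marker left out, 2 mice remained and it was 3.55 (adjusted p = 2.11e-05, edgeR). That fit had 4 sums and 1 residual degree of freedom, and it called 162 of 8456 genes. Its p rests largely on the spread shared over genes and is weak evidence from 2 mice. In the nodule of mouse 29 fibroblast-like cells were a second abundant holder of Apoe, and their part in the difference was not tested.

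**Figure D5:**
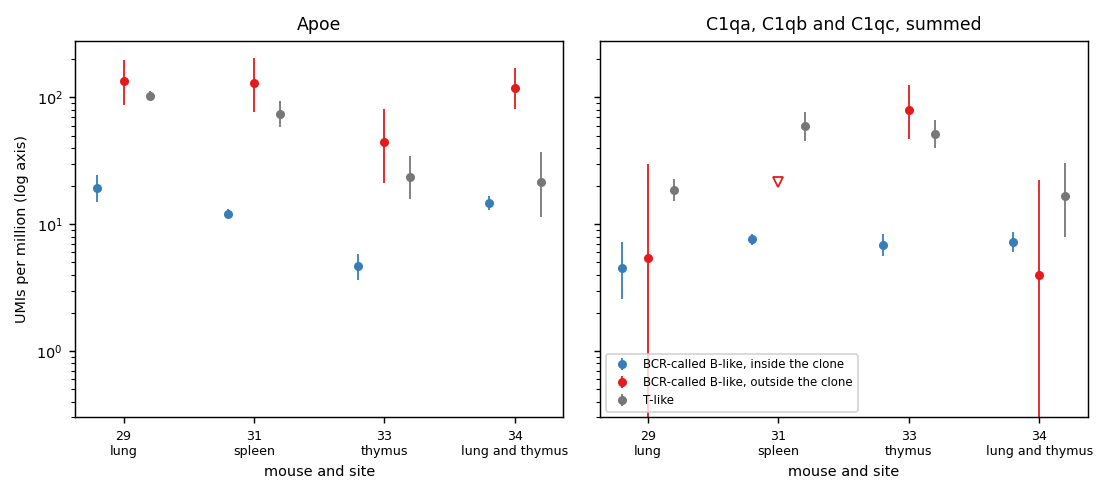
Apoe and summed C1q (CPM, log axis, with 95% Poisson intervals) in BCR-called B-like cells inside and outside the clone and in T-like cells of 4 nodules. The open triangle stands at 3 counts where no UMI was found. Apoe outside the clone lies above Apoe inside it in each nodule, its interval overlaps that of T-like cells in mice 29, 31 and 33, and C1q outside the clone is high in mouse 33 only.

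Sparse UMIs of the other genes were also found in B-like cells. Cd5l gave 132 UMIs in 124 of 7333 B-like cells of the spleen nodule of mouse 31 (2.00 CPM), at most 3 in a cell, whereas its 416 macrophage-like cells gave 3 UMIs. The level in clone cells of that nodule was 2.04 CPM (1.66 to 2.49), and no UMI was seen in its T-like cells, which allows up to 3.10 CPM. In mouse 27 there were 65 Cd5l UMIs in 64 B-like cells and 38 Timd4 UMIs in 36. Macrophage-like cells in turn seldom held a receptor call. In the whole cluster a call was held by 12 of 245 cells of mouse 27, 7 of 1013 of mouse 29 and 2 of 203 of mouse 30. It was held by 2 of 416 of mouse 31, 8 of 164 of mouse 32, 6 of 958 of mouse 33 and 1 of 101 of mouse 34. Of the macrophage-named groups 2 of 473 cells were called in mouse 33 and none in mice 27, 29, 31 and 34 (0 of 119, 0 of 722, 0 of 138 and 0 of 45). Calls were incomplete, with 1721 of 7741 B-like cells called in mouse 27, so a missing call does not show that B cell RNA was absent.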

How the data were processed

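Nodules of 7 mice were dissociated whole, with dead cells removed and erythrocytes lysed. The authors deposited raw UMI counts per gene and cell, already limited to called cells, and V(D)J contigs. The submitters' notes name GRCm38 and mm10, and the aligner is not given in the sources used here. The labels and the methods name different ends of the transcript (5′ and 3′) for the kit, and which applies was not settled.

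Cells with at least 201 UMIs, at least 101 genes and at most 10% mitochondrial UMIs were kept, as the study states. They were clustered on 2000 variable genes without the 10 genes described (30 principal components, 15 neighbours, Leiden resolution 1.0). A class name needed 3 fixed markers, each counted in 10% of the cells and 1.5-fold above the median over the main clusters with 10 CPM added. It also needed leading genes (the top 10) and depth that did not go against it. This rule replaced an earlier score after the data had been seen, so names are rebuilt and may differ from the study's. No doublet caller was run. Groups that hold markers of B or T cells remain in the macrophage-like cluster, and an alternative left out cells with 2 or more UMIs of such markers.

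Raw UMIs summed per nodule, with at least 20 cells, were tested with edgeR's quasi-likelihood test (TMM scaling, filterByExpr) at a Benjamini-Hochberg adjusted p of 0.05, with DESeq2 as an alternative. In the clone comparison both sums come from the same mouse, so mouse was a block. Nodules are the replicates, 1 per mouse, and shared mice pair only the clone sums. The edgeR step was tested on simulated data. Shares were also computed with each cell thinned to 1000 UMIs. Intervals (exact Poisson and Clopper-Pearson, 95%) and the limit that a count of 0 allows (3 counts) cover counting error only.

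The genes described and the lists were chosen with earlier results of these data known. Named genes are the 10, the 2 most abundant of each list where none passed, and the 3 most correlated with each of the 10 among genes of at least 10 CPM. Genes named for other reasons (Spic, Treml4, Hpgd, Siglecf, Car4, Pparg, Ear2, Plet1, Itgax, C1ra, C1s1 and the leading genes of groups) were chosen after their values were seen. Tools were Python 3.11.15, scipy 1.17.1, scikit-learn 1.9.0, leidenalg 0.10.2, R 4.3.3, edgeR 4.0.16 and DESeq2 1.42.0.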

Additional observations from a re-analysis of the deposited data

Results flagged for a closer look

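Values of 33 quantities over the 7 nodules were screened for a nodule set apart from the rest by Dixon's ratio, and 12 were. The cut-off sets about 1 in 20 apart by chance only where values are normally distributed, and sparse counts are not. With all other nodules at 0, as for Clec4f in macrophage-like cells, the ratio is 1.0 whatever the count. How many of the 33 chance would set apart is thus not known. Several of the 12 are the same UMIs counted in different classes.

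The lung nodule of mouse 29 stood apart in Apoe over all cells (1204 CPM, next 278) and in Trem2, at 357 CPM in macrophage-like cells (next 111), 42.8 CPM over all cells (next 3.09) and 1.05 CPM in B-like cells (next 0.185). The liver nodule of mouse 27 stood apart in Vsig4, at 22.0 CPM in macrophage-like cells (next 1.59), 0.728 CPM over all cells and 0.0532 CPM in B-like cells, where it rested on 2 UMIs. It also stood apart in Clec4f, at 19.0 CPM in macrophage-like cells, where the other 6 nodules had none, and 0.587 CPM over all cells. The liver nodule of mouse 30 stood apart in the share of C1q UMIs in macrophage-like cells (64.5%, next 90.9%), which rested on 31 UMIs. Its Timd4 level of 3.07 CPM in B-like cells was a single UMI in 78 cells. In mouse 34, Marco in B-like cells was 0.786 CPM, 29 UMIs in 26 cells, next 0.150 CPM.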

How the results depend on the processing

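Of 203 values of single genes under the alternatives, 176 kept direction and side of the threshold, 24 reversed and 3 lost the call. DESeq2 called 3 genes for the liver and 18 for the spleen, against 0 with edgeR, and leaving out each nodule gave 0 to 1 for the spleen (1 without mouse 31). In the clone comparison 5 genes were called. The number was 142 with DESeq2, 116 without the filter on low counts, 10 with C1q-holding cells left out, 162 with cells holding macrophage markers left out, and 7 to 20 with each mouse left out (14 without mouse 29, 20 without mouse 31, 11 without mouse 33 and 7 without mouse 34). No gene was called with cells of any class (1103 at an unadjusted p under 0.05), with the most frequent clonotype as the clone (252) or with no replicate block (0 called, 588). Apoe gave log2 differences of 3.32, 0.58 and 3.20 in these, past no threshold. Its difference was 3.27 with DESeq2 (adjusted p = 1.67e-24) and 3.13 to 3.30 with each mouse left out (adjusted p 0.00146 to 0.0157, edgeR). With macrophage-named groups only, chosen after seeing the data, the mean C1q share was 52.0%. Mice 30 and 32 then had too few cells, so that the liver was mouse 27 alone and the spleen mouse 31 alone, each assumed to vary like the others, and no site was replicated. Liver differences were 0.35 for C1qa, 0.23 for C1qb, 0.19 for C1qc, 0.41 for Apoe and 1.47 for Timd4, and spleen differences 0.095 for C1qb, 0.033 for C1qc and 0.0024 for Apoe, all reversed. Timd4 in the liver was also reversed without cells holding B or T markers (0.45), and C1qa in the spleen without the filter (-0.020). With each nodule left out, liver differences ran from -8.25 to 0.24 for C1qa, -7.35 to 0.19 for C1qb, -7.74 to 0.18 for C1qc, -7.62 to 0.44 for Apoe, -9.05 to 2.08 for Cd5l and -8.20 to 1.17 for Timd4. Spleen differences ran from -3.76 to 1.03 for C1qa, -3.82 to 0.63 for C1qb, -4.06 to 0.57 for C1qc and -4.41 to 0.76 for Apoe. The causes were not tested. No paired analysis was possible for the liver and spleen because each mouse gave 1 nodule. Depth limits the sparse genes, since Vsig4 and Clec4f totalled 47 and 27 UMIs.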
